A study of Mus musculus with 9 samples.

Results

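The miRNA population of the mouse hippocampus was described in 3 libraries, 1 from each of 3 adult male C57BL/6J mice of the saline group. These animals received 0.9% saline alone, in the volume used for the other groups. They carried no allele named in the labels, and were given neither the bacterial endotoxin LPS nor gastrodin. The paper's schedule places behaviour tests, forced swimming among them, before the brains were taken, so this need not be an undisturbed state. What part such tests had in the levels was not tested. The whole series held 9 libraries, 3 each from the saline, LPS and LPS + GAS groups, and was made to look for miRNAs that change in neuroinflammation. Small RNA libraries were built for the BGISEQ-500 platform from total RNA of the hippocampus, so that every cell type of the dissected tissue contributed reads. In such bulk tissue, fewer cells of a type and less RNA per cell cannot be told apart. The members were the 3 saline libraries with all 1448 mature miRNAs of the deposited table, and no other group entered any value. All levels below are CPM, the reads of a miRNA per 1000000 reads on all miRNAs of that library. The 3 mice are named by their replicate numbers, errors are SDs with n = 3, and no test was made, because the values describe a single group.

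A miRNA is cut by Drosha and Dicer from a hairpin precursor, whose 5' arm (5p) and 3' arm (3p) each can yield a mature strand. An Argonaute protein usually keeps one of these strands, and the retained strand finds messenger RNAs mainly through its seed, the short stretch after its first base. MiRNAs with the same seed form a family with largely shared targets, and brain tissue is known for high levels of the let-7, miR-9, miR-124, miR-26 and miR-181 families.

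The sequences below are those on which the ranking turned. They were read from RefSeq's table for GRCm38.p6, in which 1221 of the 1448 deposited names were found, and all 1221 had the sequence of the deposited table. The leading row and its partners from the miR-9 genes are given first. Capitals mark, in miR-9-5p, the bases that pair with miR-9b-3p, and in miR-9-3p the bases that equal miR-9b-3p at the same position.
miR-9b-3p: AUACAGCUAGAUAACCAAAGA
miR-9-5p: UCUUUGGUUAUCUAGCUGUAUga
miR-9-3p: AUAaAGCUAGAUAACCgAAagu
The let-7 and miR-98 family, which held the largest share of reads of any seed, is shown with its seed (bases 2 to 8) in capitals, because its members differ only outside the seed.
let-7c-5p: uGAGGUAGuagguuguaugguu
let-7a-5p: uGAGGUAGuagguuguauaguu
let-7b-5p: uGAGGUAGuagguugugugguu
let-7f-5p: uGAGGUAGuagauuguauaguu
let-7d-5p: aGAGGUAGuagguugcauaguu
let-7i-5p: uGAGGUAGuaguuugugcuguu
let-7g-5p: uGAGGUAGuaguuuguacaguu
let-7e-5p: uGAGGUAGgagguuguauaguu
miR-98-5p: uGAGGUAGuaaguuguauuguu
The leading members of the other abundant families, and the strands whose levels or arms are described later, follow in the same way, again with the seed in capitals.
miR-26a-5p: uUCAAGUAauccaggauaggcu
miR-99a-5p: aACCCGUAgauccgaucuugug
miR-100-5p: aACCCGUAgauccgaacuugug
miR-181a-5p: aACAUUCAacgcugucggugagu
miR-22-3p: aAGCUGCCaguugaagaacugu
miR-127-3p: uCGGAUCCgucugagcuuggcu
miR-218-5p: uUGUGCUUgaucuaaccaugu
miR-126a-3p: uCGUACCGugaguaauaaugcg
miR-204-5p: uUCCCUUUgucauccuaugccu
miR-744-5p: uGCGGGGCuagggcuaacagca
miR-744-3p: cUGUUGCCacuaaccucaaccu
miR-103-3p: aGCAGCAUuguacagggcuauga
miR-107-3p: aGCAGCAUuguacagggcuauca

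Few miRNAs made up most of the reads. The libraries held 11457656, 10412119 and 10559954 reads on miRNAs, and in each of them 8 miRNAs were enough to reach 50% of the reads. The 10 miRNAs with the highest means took 56.8%, 56.8% and 57.2% of the reads of mice 1, 2 and 3, and the 100 highest took 96.8% to 97.1%. Only 1 row exceeded 100000 CPM and 19 lay between 10000 and 100000 CPM, while 605 rows had reads but a mean under 1 CPM. The long tail was therefore wide in rows and thin in reads. All 3 libraries had reads on 867 rows, and 562 rows (38.8%) had at least 10 reads in every library. These 562 rows are termed expressed below, and the rows outside them held at most 0.0299% of the reads of a library. No read was counted in any of the 3 libraries on 253 rows. A count of 0 in a library allows a level of up to 0.262 to 0.288 CPM (3 reads), a floor that covers counting error only. Across the expressed rows the order of levels was close to the same in the 3 mice, with Spearman's rho of 0.980 to 0.983 and Pearson's r on log2 CPM of 0.986 to 0.988. These are correlations across miRNAs within pairs of libraries, and miRNAs are not independent replicates.

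**Figure D1:**
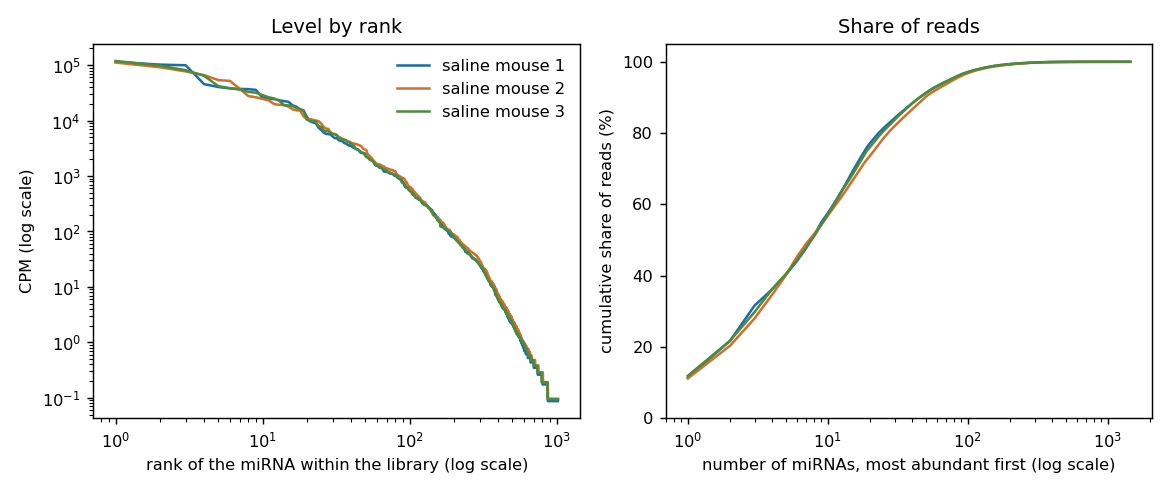
Left, the level of each miRNA with reads (CPM, log axis) against its rank within each library (log axis). Right, the cumulative share of reads (%) against the number of miRNAs, most abundant first (log axis). The 3 lines are the 3 saline mice, and all reach 50% of reads at 8 miRNAs.

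The highest level was that of miR-9b-3p, which ranked first in all 3 mice at 114391, 111423 and 118778 CPM (mean 114864 ± 3700). It was followed by let-7c-5p at 102221, 77006 and 98046 CPM and by miR-26a-5p at 99422, 91576 and 80919 CPM. Let-7c-5p and miR-26a-5p exchanged places in mouse 2, so the difference between them was not larger than their spread. MiR-124-3p, the neuronal miRNA that represses non-neuronal transcripts, stood at 38038, 66274 and 64220 CPM, and its rank was 6 in mouse 1 and 4 in the other mice. MiR-99a-5p followed at 45439, 51943 and 41848 CPM, and miR-181a-5p at 36894, 53673 and 31808 CPM. The ranges of miR-124-3p, miR-99a-5p and miR-181a-5p overlapped, so their order by mean cannot be read as an order of levels. MiR-22-3p came next at 40324, 37415 and 38406 CPM. Next by their means, from 32735 down to 20207 CPM, lay let-7a-5p, let-7b-5p, miR-127-3p, let-7f-5p, let-7d-5p, miR-9-5p, let-7i-5p and miR-218-5p. The 20 highest were completed by let-7g-5p (18668 ± 2927 CPM), miR-191-5p (15951 ± 916), the endothelial miR-126a-3p (15254 ± 41.4), miR-204-5p (14680 ± 8566) and miR-9-3p (13285 ± 2466). Of these 20, the libraries of mice 1, 2 and 3 had 20, 19 and 19 among their own 20 highest.

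**Figure D2:**
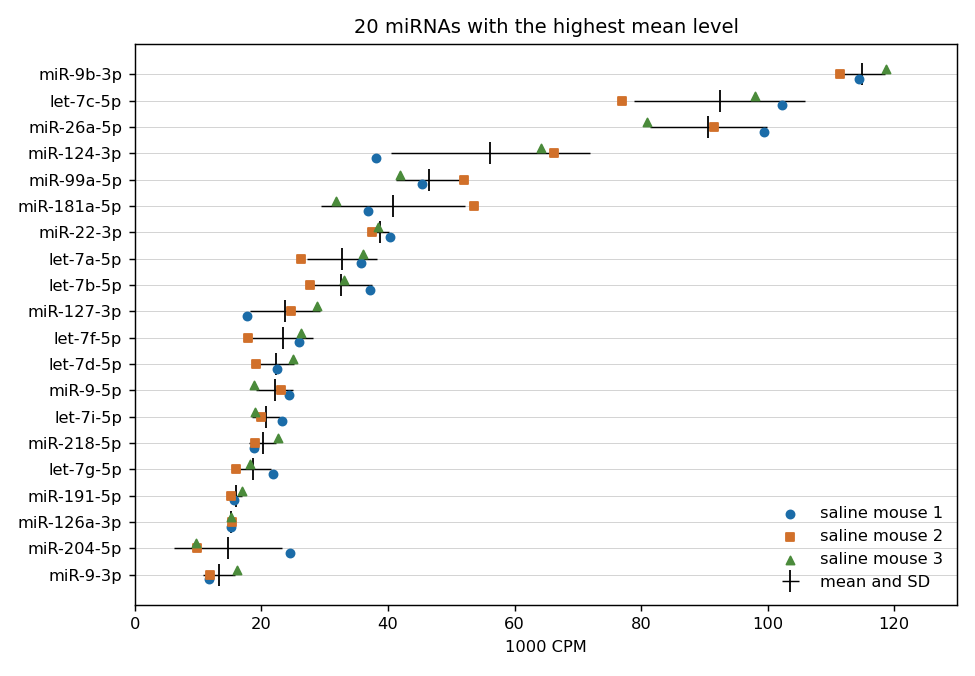
Level in 1000 CPM of the 20 miRNAs with the highest means; symbols are the 3 saline mice, vertical ticks the means and horizontal bars the SD (n = 3). MiR-9b-3p sits between 111423 and 118778 CPM, and miR-204-5p has 1 mouse at 24571 CPM and the others at 9768 and 9701 CPM.

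The miR-9 genes gave 3 of the 20 highest rows. MiR-9 is abundant in neural progenitors and neurons. The 21 bases of miR-9b-3p are the exact reverse complement of bases 1 to 21 of miR-9-5p, and RefSeq places it opposite miR-9-5p at all 3 miR-9 genes of GRCm38.p6. These places are chr3:88215613-88215633, chr7:79505279-79505299 and chr13:83738821-83738841, on the minus strand, where miR-9-5p begins at the same coordinates on the plus strand. The miR-9-2 precursor on chromosome 13 overlaps an annotated exon of the long non-coding RNA C130071C03Rik. MiR-9-5p stood at 24402, 23056 and 18769 CPM, so the row of the opposite strand was 4.69, 4.83 and 6.33 times as high in the same libraries. The other arm of the opposite-strand hairpin, miR-9b-5p, had 5 reads in all 3 libraries together (0.160 CPM). MiR-9-3p, the second strand of the miR-9 hairpin, stood at 11780, 11943 and 16131 CPM. Counted from the 5' end, miR-9b-3p differs from it over its 21 bases by A4C, G17A, A20G and G21A, where miR-9-3p is given first. The A4C change lies in the seed, so miR-9-3p and miR-9b-3p count as different families. In the deposited exp values, a second set of whole numbers for each library, miR-9b-3p also ranked first, but its ratio to miR-9-5p was 1.61. Why the opposite-strand row was the higher one was not tested.

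Other miRNAs complementary to each other over at least 17 bases gave a different picture. There were 34 such pairs from different precursors, and in 13 of them the higher member had a mean of at least 100 CPM. The lower member took under 5% of the pair's reads in 11 of the 13, miR-9b-3p and miR-9-5p being one of the exceptions with 16.1%. The other was miR-136-5p (501 ± 68.1 CPM) with miR-3071-3p (131 ± 38.1 CPM), which took 20.8%. For miR-126a-3p at 15254 CPM, no read of its opposite-strand partner miR-126b-5p was counted in any library. MiR-24-3p (7603 ± 3200 CPM) had a partner, miR-3074-5p, with 23 reads in all.

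The let-7 and miR-98 family, which restrains growth programmes and marks differentiated cells, held more reads than any other seed. Its 10 rows were all expressed and summed to 280386, 212619 and 267507 CPM, 25.4% of all reads on average. Of its 10 rows 9 exceeded 1000 CPM. Let-7c-5p led with 36.5% of the family, and mouse 2 was the lowest for 8 of the 10 members, against 18.3% of expressed rows that were lowest in mouse 2. After TMM scaling, which moves mouse 2 by -0.143 on the log2 scale, mouse 2 was the lowest for 9 of the 10, against 35.2% of expressed rows. Let-7a-5p, let-7b-5p and let-7f-5p each differ from let-7c-5p by 1 or 2 bases. Counted from the 5' end with let-7c-5p first, let-7a-5p differs by G19A and let-7b-5p by A17G. Let-7a-5p and let-7b-5p had nearly equal means, 32735 ± 5582 and 32637 ± 4766 CPM. Let-7e-5p (8889 CPM) and miR-98-5p (1821 ± 212 CPM) were the least abundant members over 1000 CPM, and let-7k was at 38.6 CPM. How reads that fit more than 1 member were shared among them is stated in none of the sources at hand. In all, 19 rows at 100 CPM or more had a neighbour 1 base away, counting rows of equal length, and they are read with the same caution.

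The 10 seeds with the most reads took 73.4%, 71.3% and 73.2% of the reads of mice 1, 2 and 3. After let-7 and miR-9b-3p came miR-26, with miR-26a-5p supplying 98.9% and miR-26b-5p standing at 1036 ± 32.2 CPM. The miR-99 and miR-100 family summed to 57225, 65159 and 53639 CPM, of which miR-99a-5p gave 79.1%, miR-100-5p stood at 6301 ± 795 and miR-99b-5p at 5963 ± 235 CPM. MiR-99a-5p and miR-100-5p differ by a single base, U16A. The miR-181 family summed to 42066, 60328 and 36764 CPM, led by miR-181a-5p, with miR-181c-5p at 2940 ± 502 and miR-181b-5p at 2357 ± 572 CPM. All 4 of its members were highest in mouse 2, against 53.9% of expressed rows, and 3 of 4 after TMM scaling, against 30.6%. Families with a single row were miR-124-3p, miR-22-3p, miR-127-3p and miR-9-5p, and miR-218-5p carried over 99.9% of its seed. The 562 expressed rows carried 460 different seeds, of which 65 were shared by at least 2 expressed rows. These 65 seeds held 54.1% of the reads.

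Among the 9 seeds with at least 3 expressed members and 1000 CPM, the members did not always follow each other from mouse to mouse. The miR-15 and miR-16 family, known for limiting cell cycle entry, had all 6 expressed members lowest in mouse 3, where the sum was 8302 CPM against 11702 and 11879 CPM in mice 1 and 2. All members were also lowest in mouse 3 in the families led by miR-125b-5p (3 members) and miR-92b-3p (4 members). After TMM scaling this held for the miR-15 and miR-16 and the miR-125 families, and for 3 of 4 members in the miR-92 family. Of all expressed rows 37.2% were lowest in mouse 3 on plain totals and 33.5% after TMM scaling. In the miR-30 seed the highest row was miR-384-5p at 5747 ± 889 CPM, ahead of miR-30d-5p at 1601 ± 545 and miR-30b-5p at 1530 ± 164 CPM.

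Arm balance was measured in 250 hairpins with at least 100 reads over both arms in every library, out of 559 whose 2 arms are both listed. Hairpins of the deposited table that share a mature strand were joined, and gene copies that it does not list are not counted. Most hairpins were read from a single arm. The 5p arm held at least 75% of the reads in every mouse in 119 hairpins (47.6%), the 3p arm in 91 (36.4%), and neither did in 40 (16%). The major arm took a median of 98.3% of a hairpin's reads, and at least 99% in every mouse in 94 hairpins. The share was close to the same in the 3 mice, with a median SD of 0.465 percentage points, and the same arm was the major arm in all 3 mice in 242 hairpins. By reads, 5p rows held 66.8%, 61.9% and 61.6% of the libraries of mice 1, 2 and 3. Outside the let-7 seed, whose members are 5p strands, they held 53.9%, 51.6% and 47.6%.

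**Figure D3:**
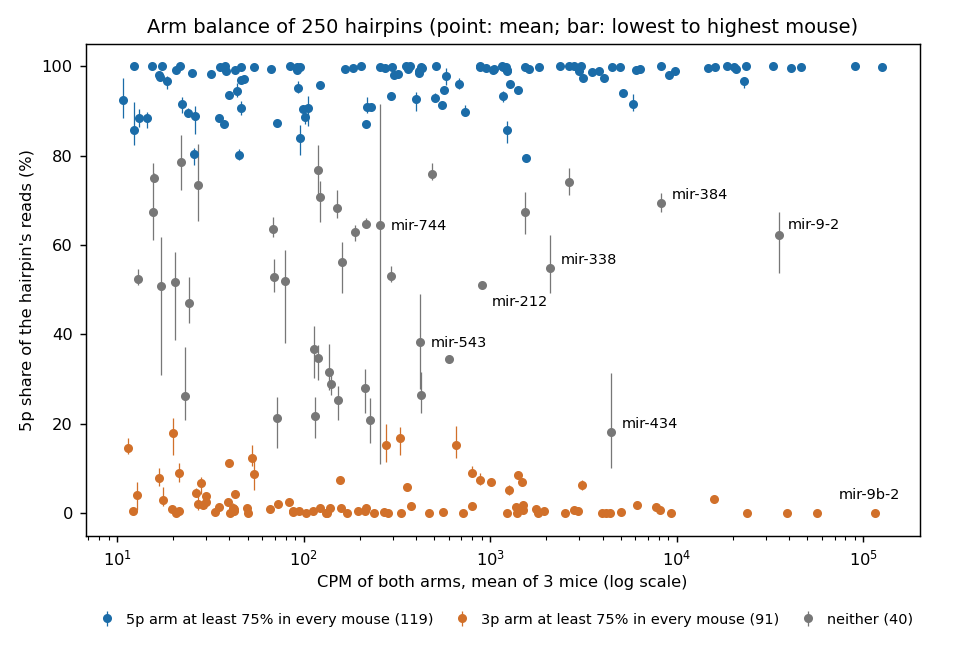
Share of a hairpin's reads on its 5p arm (%) against the CPM of both arms (log axis) for 250 hairpins; points are means of 3 saline mice and bars run from the lowest to the highest mouse. Most points lie near 100% or 0%, mir-212 lies at 51.1%, and mir-744 spans 10.9% to 91.6%.

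Of the 10 hairpins with the most reads, 9 had an almost complete preference. The joined let-7a and let-7c hairpins (99.9% 5p), miR-26a (99.98%), miR-99a (99.96%) and miR-181a (99.5%) were read from the 5p arm. MiR-124 (0.0526% 5p), miR-22 (0.0477%) and miR-127 (0.0191%) were read from the 3p arm, as was miR-9b. For let-7b, the 5p strand had 426503, 288529 and 348224 reads and the listed 3p strand 0 in each library. The exception was miR-9-2, where both strands were abundant. Its 5p share was 67.4%, 65.9% and 53.8% in mice 1, 2 and 3, with miR-9-5p lowest and miR-9-3p highest in mouse 3. RefSeq places both strands at all 3 miR-9 genes, so this share covers these genes together and not miR-9-2 alone.

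The 5 hairpins nearest to equal arms, among those over 100 CPM, were miR-212, miR-34c, miR-338, miR-335 and miR-543. MiR-212 gave 51.3%, 50.9% and 51.2% from its 5p arm, an SD of 0.208 percentage points. Its cluster neighbour miR-132, which like miR-212 is induced by neuronal activity, gave 64.3%, 66.0% and 63.8% from its 5p arm. The 3p strands of both share the seed, AACAGUC, and miR-212-3p (444 ± 77.3 CPM) was higher than miR-132-3p (75.3 ± 17.5 CPM) in every mouse. MiR-34c gave 55.3%, 51.7% and 52.5% although its level in mouse 1 was several times that of the others. MiR-338, which promotes oligodendrocyte maturation, gave 53.5%, 49.2% and 62.1%. MiR-543 gave 27.7%, 49.1% and 38.0%, a range of 21.4 percentage points.

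The major arm was not the same in all mice in 8 hairpins. The 5 with the most reads were miR-338, miR-744, miR-335, miR-551b and miR-380. Except for miR-744, their mean 5p shares were 52.0% to 56.2%, and the ranges between mice were 7.32 percentage points in miR-380, 11.4 in miR-335, 12.9 in miR-338 and 20.8 in miR-551b. Of the 250 hairpins, 19 ranged over more than 10 points. MiR-335 gave 60.6%, 49.2% and 58.8% from its 5p arm, miR-551b gave 58.7%, 38.2% and 59.0%, and miR-380 gave 49.5%, 52.3% and 56.8%. In miR-744, whose precursor lies in an intron of Map2k4 at chr11:65734733-65734832 on the minus strand, the 5p share was 91.6%, 91.1% and 10.9%. MiR-744-5p had 3015, 4295 and 37 reads (263, 413 and 3.50 CPM), while miR-744-3p had 278, 419 and 302 reads (24.3, 40.2 and 28.6 CPM). The change of arm in mouse 3 was therefore a loss of 5p reads with 3p reads in the range of the other mice. The exp values of miR-744-5p were 2963, 4190 and 37. What lowered this row in mouse 3 was not tested.

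Major and minor strands differed in their first base. In the 210 hairpins with a major arm, the major strand began with U in 52.9% and the minor strand in 14.8%. The minor strand most often began with C, in 37.1%, against 12.9% of major strands. The share of U was close for 5p major strands (52.1% of 119) and 3p major strands (53.8% of 91). Weighted by reads, 61.7%, 58.7% and 60.8% of the libraries began with U and at most 0.572% with G. By rows, in contrast, U began 40.7% of the expressed miRNAs and 40.7% of those without a read. The mean GC content was 49.1% in expressed rows, 53.9% in rows without a read, 45.2% in the 83 rows over 1000 CPM, and 43.1% to 44.5% when weighted by reads. Lengths of 21 to 23 bases made up 90.4% of expressed rows and 81.4% of rows without a read. Whether ligation in library construction moved these shares was not tested.

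Positions were taken from GENCODE release M21 for GRCm38, in which 827 of 866 precursors matched a single annotated miRNA of their chromosome exactly. The precursors placed in this way held 88.5% of the reads. Most of the rest were those of miR-9b-3p, which had no such match. By the precursor that the table lists, 266 expressed rows lay in introns, 123 overlapped an exon and 163 lay outside the protein-coding and long non-coding genes of their strand. Examples in introns are miR-218-1 in Slit2 and miR-218-2 in Slit3, let-7g in Wdr82, miR-128-1 in R3hdm1, miR-153 in Ptprn2 and miR-204 in Trpm3. MiR-126a overlaps an annotated exon of Egfl7, a gene of endothelial cells.

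Precursors within 10 kb of each other on one strand formed 68 clusters, which held 49.6%, 51.4% and 52.7% of the reads. The 5 most abundant began with let-7c-2 with let-7b (125128 ± 18106 CPM) and let-7a-1 with let-7f-1 and let-7d (79127 ± 12885 CPM). Next came miR-124-1 with miR-3078 (56214 ± 15745 CPM), miR-99a with let-7c-1 (46436 ± 5120 CPM) and miR-181a-1 with miR-181b-1 (43326 ± 12030 CPM). In this order the 5 clusters lie at chr15:85706603-85707403, chr13:48536012-48538272, chr14:64590657-64591271, chr16:77598936-77599750 and chr1:137966455-137966718. Several of their mature strands also have copies elsewhere, such as let-7c-5p on chromosome 16, and the table assigns each to one precursor. A sum can therefore be too high or too low for its place.

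The imprinted domain from Meg3 to Mirg, expressed from the maternal chromosome, was the richest in rows. It spans chr12:109541001-109749460 and held 108 rows from 55 precursors, 88 of them expressed, with 11 at 1000 CPM or more. The domain summed to 50224, 61944 and 73303 CPM in mice 1, 2 and 3, 6.18% of reads on average, of which miR-127-3p gave 38.4%. MiR-127-3p, whose precursor lies antisense to Rtl1, had the same order of mice, with 17800, 24652 and 28783 CPM. MiR-411-5p (4454 ± 712 CPM), miR-376a-3p (4362 ± 541 CPM) and miR-379-5p (3786 ± 724 CPM) followed. Mouse 1 was the lowest for 61 of the 88 expressed rows of the domain, against 44.5% of all expressed rows. After TMM scaling it was the lowest for 40 of 88, against 31.3% of all expressed rows. Mouse 2 was then the lowest for 38 of 88, and mouse 3 the highest for 57 of 88, against 34.3% of all expressed rows. On plain totals mouse 3 was the highest for 44 of 88, against 27.0%. MiR-434-3p, at 3489, 1983 and 5713 CPM, was one of 15 of the 88 rows that were lowest in mouse 2 on plain totals.

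The spread between mice was larger than counting error for most miRNAs. Over the 562 expressed rows the SD was a median of 18.6% of the mean, while counting alone would give a median of 5.24%. The biological coefficient of variation, the spread beyond counting that edgeR estimates over all expressed rows together, was 27.1%. The median SD was 15.7% of the mean for the 186 rows at 100 CPM or more. The highest mouse exceeded the lowest by over 2 times in 102 rows (18.1%), by over 3 times in 22 and by over 5 times in 7. The direction of these differences moved with the scaling, since on plain totals 53.9% of expressed rows were highest in mouse 2, and after TMM scaling 30.6% were.

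**Figure D4:**
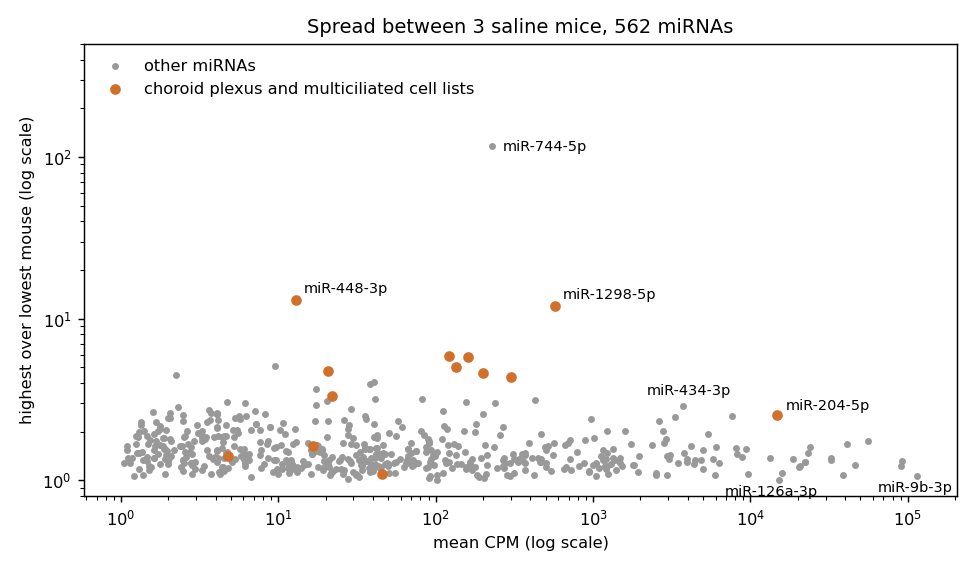
Highest over lowest mouse (log axis) against mean CPM (log axis) for 562 miRNAs in 3 saline mice; orange points are the choroid plexus and multiciliated cell lists. MiR-744-5p stands alone at 118, and 102 miRNAs lie above 2.

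The rows with the widest spread among those at 100 CPM or more, after miR-744-5p, were mostly on the lists of choroid plexus, the tissue that makes cerebrospinal fluid, and of multiciliated cells, which line the ventricles. MiR-1298-5p stood at 1433, 176 and 120 CPM. MiR-34b-5p, at 255, 43.2 and 65.7 CPM, and miR-34c-5p, at 339, 58.1 and 83.0 CPM, are miRNAs of ciliated cells. Their 3p strands moved with them, as miR-34c-3p had 273, 54.4 and 75.3 CPM and miR-34b-3p had 555, 128 and 226 CPM. MiR-1264-5p had 367, 79.7 and 150 CPM. All 6 were highest in mouse 1, against 17.7% of the 186 rows at 100 CPM or more. They were picked for their spread and are not independent. The miR-34b and miR-34c strands are both arms of hairpins on chromosome 9, and miR-1298-5p and miR-1264-5p come from the X chromosome. The 10 widest were completed by miR-135b-5p at 352, 709 and 225 CPM, miR-375-3p at 264, 86.5 and 119 CPM and miR-429-3p at 226, 370 and 122 CPM, of which miR-375-3p was highest in mouse 1 and the others in mouse 2.

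The steadiest row on plain library totals was miR-126a-3p, the endothelial miRNA, at 15254, 15295 and 15212 CPM. Its highest mouse exceeded its lowest by 1.01 times, and its SD was 0.272% of the mean. MiR-300-5p (102 ± 0.492 CPM) and miR-146b-5p (202 ± 4.51 CPM) came next. The 10 steadiest also included miR-28a-5p, miR-26b-5p, miR-9b-3p, miR-181d-5p, miR-222-3p, miR-92b-3p and miR-22-3p, all with a highest mouse at most 1.08 times the lowest. They were picked as the smallest of 186 rows, and the choice rested on the scaling. With TMM-scaled totals miR-126a-3p stood at 16305, 13853 and 15712 CPM, its highest mouse exceeded its lowest by 1.18 times, its SD was 8.37% of the mean, and 37 rows were steadier. Of these 10 rows only miR-181d-5p was also among the 10 steadiest after TMM scaling, and the highest mouse of the 10 was 1.10 to 1.27 times the lowest.

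Reads fell away almost completely in at least 1 library for 4 rows. These had a median of at least 20 reads and under 1/20 of that in a library, or under 4 reads in one library and at least 100 in another. Besides miR-744-5p, they were miR-532-3p with 170, 225 and 2 reads, miR-297c-5p with 1, 646 and 0 reads and miR-669c-5p with 4, 297 and 252 reads. MiR-532-5p, the other arm of miR-532, had 11440, 13444 and 14360 reads, so only the minor strand was low in mouse 3. MiR-297c and miR-669c lie within an intron of Sfmbt2 on chromosome 2, in a large array of repeated miRNAs. Mouse 1 was low for both of their 5p strands, and mouse 3 for miR-297c-5p only. MiR-297a-5p, a close relative, had 371, 389 and 341 reads. The causes of these gaps were not tested.

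The tissue label was compared with lists of miRNAs known from particular cell types or tissues. The sum of a list is not a measure of the amount of its cell type. The 9 neuronal miRNAs were all expressed and summed to 81950, 117079 and 112299 CPM, led by miR-124-3p and miR-218-5p (20207 ± 2157 CPM). MiR-138-5p (9606 ± 454 CPM), miR-128-3p (8098 ± 1978 CPM) and miR-153-3p (6008 ± 1524 CPM) followed. The miRNAs of the hindbrain and spinal cord Hox clusters, which mark the caudal nervous system, summed to only 14.1 to 21.1 CPM over 4 rows. MiR-122-5p, the liver miRNA, was at 9.97 ± 0.433 CPM, and the muscle miRNAs miR-1a-3p, miR-133a-3p and miR-206-3p were at 40.4, 11.1 and 20.4 CPM. MiR-375-3p, known from endocrine organs, was the highest of these rows from outside the brain at 264, 86.5 and 119 CPM (157 ± 94.6).

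As sums, glial and vessel lists spread less between mice than those of the ventricle and the blood, with the highest mouse at most 1.81 times the lowest. The microglia and vessel sums were mostly miR-150-5p and miR-126a-3p, and some single members spread more. The highest mouse was 2.67 times the lowest for miR-223-3p, 2.56 for miR-219a-5p and 2.39 for miR-338-3p. It was 2.05 times for miR-155-5p and 2.03 for miR-145a-5p. The glial miR-29 strands summed to 5894, 7572 and 6364 CPM. The 4 oligodendrocyte strands summed to 5463, 6520 and 3599 CPM. All 4 were lowest in mouse 3 on plain totals and after TMM scaling, against 37.2% and 33.5% of expressed rows. They are both arms of miR-338 and of the joined miR-219a hairpins, so they are not independent observations. The most abundant of the 4 was miR-219a-2-3p at 2908 ± 815 CPM, which was higher than miR-219a-5p at 200 ± 87.7 CPM in every mouse. Among the 6 miRNAs of microglia and leukocytes, miR-150-5p had 4960 ± 429 CPM and miR-146a-5p had 371 ± 72 CPM. MiR-142a-3p (12.9 CPM), miR-142a-5p (11.3 CPM), miR-223-3p (7.13 CPM) and miR-155-5p (5.47 CPM) were low. The list of blood vessels, led by miR-126a-3p, ranged from 18894 to 20934 CPM.

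The choroid plexus list summed to 26514, 10065 and 10018 CPM, 2.65 times as high in the highest mouse as in the lowest. Nearly all of this was miR-204-5p, at 24571, 9768 and 9701 CPM. Among the more restricted rows the size of the difference varied. MiR-448-3p, from the Htr2c locus, stood at 33.3, 3.27 and 2.56 CPM, and miR-1298-5p is given above. MiR-764-5p, at 20.2, 12.5 and 16.8 CPM, and miR-1298-3p, at 5.41, 3.84 and 5.11 CPM, differed much less. MiR-1912-5p was at 0 in all 3 libraries and miR-764-3p at 0.192 to 0.568 CPM, highest in mouse 3. Of the 11 rows, 8 were expressed, and all 8 were highest in mouse 1 on plain totals and after TMM scaling. Apart from miR-204-5p and miR-211-5p, these rows come from the X chromosome. Both arms of miR-1264 and of miR-1298 are among them, so the 8 are not independent observations. The multiciliated cell list summed to 1470, 327 and 497 CPM. All 5 expressed rows were highest in mouse 1, but miR-449a-5p was nearly flat at 47.7, 43.3 and 46.7 CPM. The difference in the sum therefore lay in the strands of miR-34b and miR-34c. The red blood cell list, at 3600, 4634 and 1902 CPM, was almost entirely miR-451a, and all of its rows were highest in mouse 2. Its rows miR-486a-5p and miR-486b-5p had the same reads in every library, so they entered the sum as 1 strand and are not separate observations. MiR-451a and miR-144 come from the same cluster. The epithelial miR-200 family list, at 356, 574 and 192 CPM, was also highest in mouse 2 for each of its 5 rows. These 5 rows lie on chromosomes 4 and 6 only and are not independent either. Of all expressed rows, 19.0% were highest in mouse 1 on plain totals and 35.1% after TMM scaling. For mouse 2 these shares were 53.9% and 30.6%, and all 4 expressed red blood cell rows and all 5 epithelial rows were highest in mouse 2 under both. What part differing amounts of ventricle lining or blood in the dissected tissue had in the spread was not tested.

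**Figure D5:**
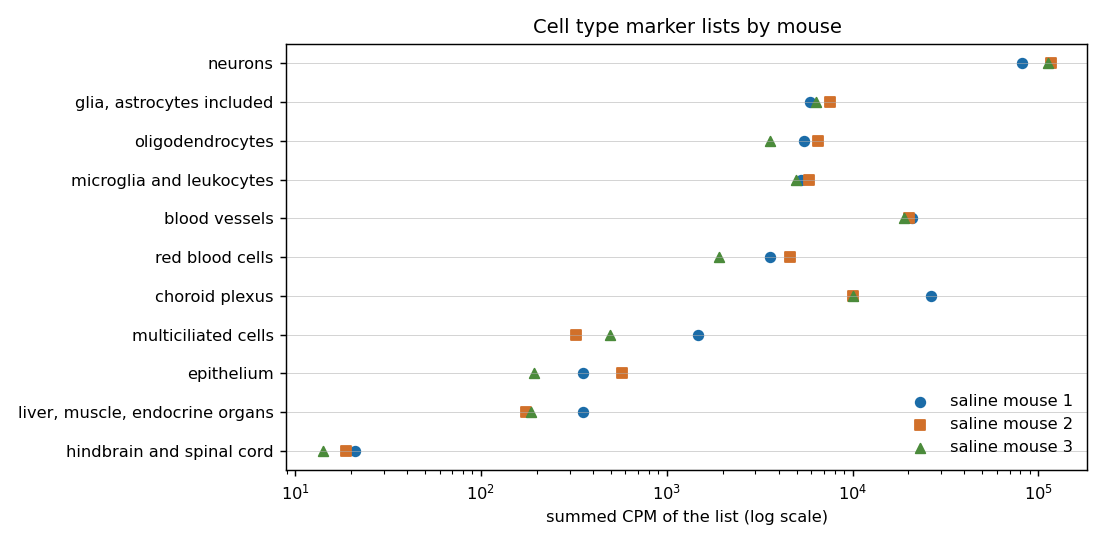
Summed CPM (log axis) of 11 lists of cell type miRNAs in the 3 saline mice. The choroid plexus list has mouse 1 at 26514 CPM and the others at 10065 and 10018 CPM, while the blood vessel list lies between 18894 and 20934 CPM.

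Apart from miR-532-5p, the miRNAs that the study followed up sat low in these saline mice. MiR-107-3p had 60, 45 and 59 reads (5.24, 4.32 and 5.59 CPM). MiR-103-3p, which differs from it by 1 base, G22C with miR-103-3p first, had 651, 451 and 561 CPM, 110 times the mean of miR-107-3p. Both share the seed and regulate lipid and energy metabolism. The other arm, miR-107-5p, stood above miR-107-3p in every mouse, at 23.6, 18.6 and 19.7 CPM. How reads that fit both miR-103-3p and miR-107-3p were assigned is stated in none of the sources at hand. The level of miR-107-3p and the balance of its arms are therefore read with caution. MiR-21a-3p had 21, 24 and 15 reads, while its major arm miR-21a-5p had 1389, 1515 and 746 CPM. MiR-6395 had 0, 0 and 43 reads. MiR-532-5p, at 998, 1291 and 1360 CPM, was the only one of these followed-up miRNAs with a mean over 100 CPM. At such read numbers 1 read is worth 0.0873 to 0.0960 CPM, and the counting error of miR-107-3p alone is 13.5% of its level.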

How the data were processed

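Small RNA from the hippocampus of 3 saline mice was analysed. The authors deposited read counts per mature miRNA, not normalized, and exp values, whole numbers that the authors did not define and that are handled here as a score of unknown derivation. The aligner and counter are not named in the labels or the methods. The submitters' processing notes name GRCm38.p6. The authors' group means and comparison columns (log2 fold changes, p-values and q-values) were not used, and 0 columns of per-library values belonged to no sample. CPM were reads over the total of all rows. The median counting error was 5.24% over miRNAs with at least 10 reads in every library. Seeds were bases 2 to 8. Dispersion was estimated with edgeR 4.0.16 in R 4.3.3 after TMM scaling, with an intercept only, and was tested on simulated data, as was the arm code. DESeq2 1.42.0 size factors were an alternative. Other tables were made in Python 3.11.15 with pandas 2.3.3. Whether the libraries were prepared together is not stated, so the spread between them may be partly technical.

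The miRNAs named were the 20 with the highest means, the 10 seeds with the most reads and their members over 1000 CPM, the 10 hairpins with the most reads, the 5 nearest to equal arms over 100 CPM and the 5 most abundant with a changing arm. They were also the 10 with the largest and the 10 with the smallest spread at 100 CPM or more, all rows that fell away in a library, the cell type lists, the 5 largest clusters and the miRNAs that the study's results name. Complementary pairs, the Meg3 to Mirg domain, families by mouse, miR-434-3p and miR-132 were chosen after their values were seen. Members and lists were chosen with earlier results of these data known. Alternatives were other thresholds, scalings, seeds and distances, the exp values, and each library left out.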

Additional observations from a re-analysis of the deposited data

How the results depend on the processing

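Most values moved by less than the SD between the 3 mice, or by less than 1.5 times for a count, when a choice was changed. They did so in 110 of 132 recomputed values. With the exp values, the 10 highest miRNAs took 30.8% instead of 56.9%, and the let-7 seed took 19.8% instead of 25.4%, while the 20 highest miRNAs by exp values and by reads were the same 20. The exp values also moved 9 of the other 10 cell type lists. At least 1 read in all 3 libraries left 867 miRNAs in place of 562. At least 1000 reads over both arms left 76 hairpins with a 5p and 56 with a 3p major arm, among 156 measured. Clusters of up to 50 kb held 54.7% of the reads, against 51.2% at 10 kb.

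The number of miRNAs whose mice differed by over 2 times, 102, depended most on the choices. It was 57 at a minimum of 50 reads, 313 at a minimum of 1 read, 80 with TMM and 79 with DESeq2 size factors, and 40 to 54 with a mouse left out, since the highest and lowest of 2 mice differ less than those of 3. Leaving out a mouse gave 57.0% to 57.3% for the 10 highest miRNAs, 571 to 577 expressed miRNAs, and 10041 CPM for the choroid plexus list without mouse 1, against 18266 and 18289 CPM without mouse 2 or 3. The biological coefficient of variation was 23% without the choroid plexus, multiciliated, epithelial and red blood cell lists, and 27.1% with them. Counting error limits rows between 1 and 10 CPM, where it had a median of 18.1%, against 1.85% between 100 and 1000 CPM. No paired analysis was possible because no comparison between groups was made.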

Other observations

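The exp values stayed near the read counts at low levels and fell behind at high ones. Between 100 and 1000 reads, a read count was a median of 1.003 times the exp value, between 10000 and 100000 reads it was 1.13 times, and above 1000000 reads it was 6.99 times. No exp value exceeded its read count in 4344 pairs of values, and the highest exp value was 171527, for miR-9b-3p in mouse 1, which had 1310654 reads. The order of miRNAs was nearly untouched, with a Spearman correlation across miRNAs of 0.999996. Shares, CPM levels and ratios that involve abundant rows therefore depend on which column is read. How the exp values were made is stated in none of the sources at hand.

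Chromosome 13 held 24.9% of the reads on 23 expressed rows, by the chromosome that the deposited table names, led by miR-9b-3p. Chromosome 12 had the most expressed rows, 104, with 6.98% of the reads, and chromosome 5 had 0.111% on 18 expressed rows.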
